A study of Sus scrofa with 36 samples.

Results

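Cytochrome P450 genes were read from the liver of 36 castrated male growing pigs on 1-colour Agilent pig arrays of 60-base probes. A gene was taken when the array's own gene name was CYP followed by a digit, leaving aside the bile acid enzymes CYP7A1, CYP8B1 and CYP27A1 and the name CYP51A1, and when at least 1 of its probes was well above background on 6 or more of 36 arrays. The array held 39 such names, of which 36 were candidates with 92 probes, and 32 genes with 80 probes passed the filter, out of 33267 gene features tested. No probe carried the name CYP51A1. The enzyme is on the array as CYP51, of which CYP51A1 is a synonym in RefSeq, so it counts as a member by the letter of the rule.

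The animals were Large White (LW), a European pig bred for fast growth, Creole (CR), a Caribbean landrace, and F1, the cross of these breeds, with 12 animals of each. In each breed 6 animals were killed at thermoneutrality (TN, 24 °C) and 6 in heat stress (HS) lasting 5 days at most, which the labels give as 30 °C and the growth protocol as 32 °C. The labels give no age. Heat-stressed animals were killed later, so the effect of heat and those of the slaughter day and the added days of age cannot be told apart. Per the study's methods the animals of a breed came from blocks of littermates, which the labels do not give, so p-values measure the spread between these related animals. By the same methods pigs of a breed shared pens, and each pen was killed at a single temperature. The labels do not give the pen, so penmates are counted as separate animals. Effects of pen cannot be told apart from those of breed and heat.

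P450 enzymes hold a heme whose iron, bound through a cysteine, puts an atom of molecular oxygen into fats, steroids, vitamins and foreign compounds. Their electrons come from NADPH through the reductase POR in the endoplasmic reticulum or through the ferredoxin FDX1 in mitochondria. The liver carries most of the forms that clear drugs, and their genes answer to sensors of foreign compounds such as AHR, the pregnane X receptor (gene NR1I2) and the constitutive androstane receptor (gene NR1I3). The levels below are log2 quantile-normalized spot intensities, averaged over the kept probes of a gene, on which a difference of 1 is 2-fold. A level belongs to its own probes and is not set against that of another gene.

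Of the 80 probes, 73 were well above background on all 36 arrays. The 4 genes that were not kept were the pig aromatase forms CYP19A2 and CYP19A3, CYP1B1 and CYP27B1. Just outside the filter, the best probe of CYP19A3 was well above background on 5 arrays. Just inside it, the single probe of CYP2U1 was well above background on 7 arrays and that of CYP4B1 on 12. RefSeq gave coordinates (Sscrofa11.1) for 26 of the 32 genes. A further 8 probes named in the lower-case form Cyp were outside the rule.

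The probes that carry the results are shown 5′ to 3′ as the scanner tables give them, since probes of the same gene name did not always move together and some names share sequence. The CYP2A19 probe that starts at base 1301 of the named transcript and the single CYP2A7 probe were the same 60 bases, and the capitals mark the codons of the heme-binding signature, the stretch around the cysteine that binds the iron, found in these 2 of the 80 probes. The CYP2A19 probe at base 154 lies at the other end of the transcript.
CYP2A19 probe at base 154: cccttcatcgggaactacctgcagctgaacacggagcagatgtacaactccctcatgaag
CYP2A19 probe at base 1301: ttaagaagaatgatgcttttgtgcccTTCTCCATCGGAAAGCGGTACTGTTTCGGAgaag
CYP2A7 probe: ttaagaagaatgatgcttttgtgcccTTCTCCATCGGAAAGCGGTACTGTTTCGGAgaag

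The first pair of CYP2C33 probes overlaps by 19 positions, in capitals, and differs there at 2 of them, C49G and G56A, counted from 1 at the 5′ end of the probe at base 327, whose base comes first. These probes are shown because their breed differences had opposite signs.
CYP2C33 probe at base 327: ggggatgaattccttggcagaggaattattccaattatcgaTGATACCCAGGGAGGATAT
CYP2C33 probe at base 368: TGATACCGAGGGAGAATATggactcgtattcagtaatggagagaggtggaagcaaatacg

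The probes below gave the widest spread between animals (CYP2C34, with CYP2C49, which varied with it), the heat comparison (CYP3A46) and the largest fall between CR and LW among the probes that passed the test (CYP4A24). No letters are capitalised because no motif was searched in them beyond the heme-binding signature, which they lack.
CYP2C34 probe at base 597: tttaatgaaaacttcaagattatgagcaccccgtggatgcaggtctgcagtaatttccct
CYP2C49 probe at base 973: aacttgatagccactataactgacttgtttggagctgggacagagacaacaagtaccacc
CYP3A46 probe at base 797: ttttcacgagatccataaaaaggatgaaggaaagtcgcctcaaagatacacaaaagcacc
CYP3A46 probe at base 1150: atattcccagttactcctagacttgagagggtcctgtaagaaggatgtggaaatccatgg
CYP4A24 probe at base 696: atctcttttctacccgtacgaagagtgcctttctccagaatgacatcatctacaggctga

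The labelled tissue was checked against hepatocyte markers, of which 6 of 7 were kept, with group means of 16.83 to 16.96, with ALB at the 99.9th percentile of all features. Median signals ran from 70.0 to 92.0 intensity units and no spot was saturated. On the first principal component, with 18.6% of the variance, 5 arrays lay away from the others of their breed (LW TN replicates 1 and 6, F1 TN replicate 3, F1 HS replicates 1 and 2). The LW arrays among them stood at -4.83 and -3.04, toward CR and F1, with the other LW arrays at -24.8 or below. The F1 arrays among them stood at -17.0, -21.3 and -18.1, toward LW, with the other F1 arrays at -1.31 or above. Whether the breed labels of these animals are right was not tested. The main results keep all 5, and values without them stand beside the results that they move most. The 5 were picked on these same data for lying toward another breed. Leaving them out therefore favours breed and mid-parent differences, so passes gained without them are no support. In bulk tissue, fewer cells of a type and less RNA per cell cannot be told apart.

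The effect of heat was tested first over all 3 breeds, with breed in the model. None of the 32 P450 genes passed the test for HS against TN (limma, Benjamini-Hochberg adjusted over all features, smallest adjusted p = 0.295), beside 0.833% of all features. At an unadjusted p under 0.05 there were 2, CYP3A39 and CYP3A46, beside 13.0% of all features. Differences ran from -0.16 in CYP1A1 to 0.55 in CYP2C42, with a median of 0.02 over the members and 0.0 over all features. By single probe the count was also 0 of 80, beside 0.859% of all probes. An unadjusted p under 0.05 was reached by 6, beside 13.1% of all probes. The smallest adjusted p was 0.0648, for the CYP3A46 probe at base 1150.

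**Figure D1:**
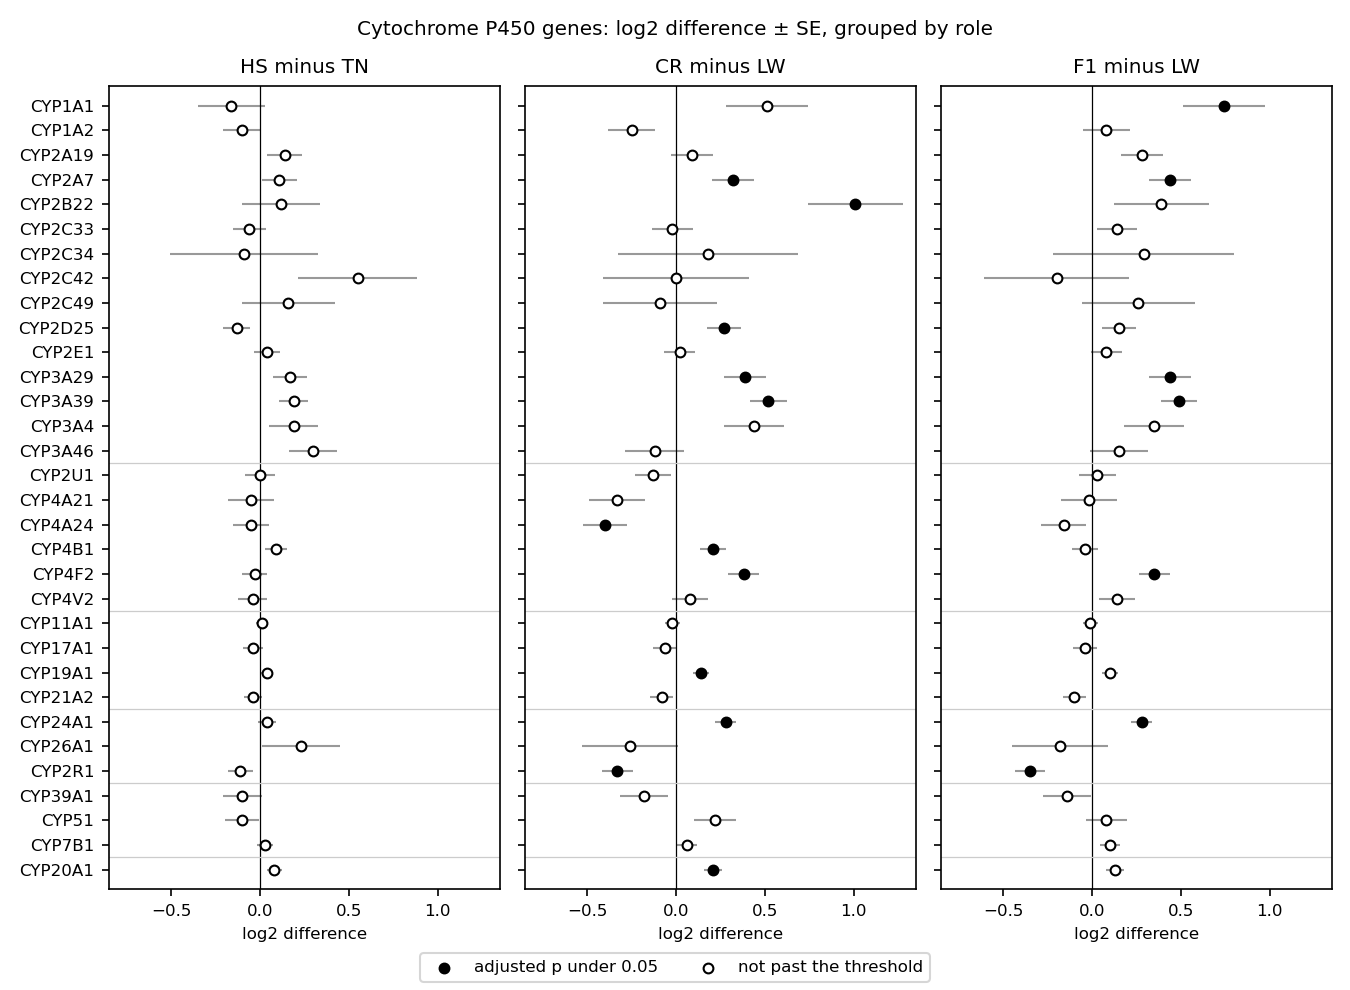
Log2 difference with its standard error (horizontal axis) for the 32 P450 genes, set out from top to bottom as drug and foreign compound, fatty acid, steroid hormone, vitamin D and retinoid, sterol and orphan enzymes, for HS minus TN, CR minus LW and F1 minus LW, with filled points for an adjusted p under 0.05. No point is filled for heat, 12 are filled for CR minus LW and 7 for F1 minus LW.

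CYP3A enzymes oxidise steroids and a large share of drugs, and in mammals their genes are driven by the pregnane X receptor. CYP3A46 (chr3:6677911-6709855) is read by 4 kept probes. Its level ran from 12.96 through a median of 13.26 to 13.59 in LW TN, and from 13.57 through 13.66 to 13.88 in LW HS. In CR TN the lowest, median and highest were 12.34, 12.76 and 13.68, and in CR HS 13.36, 13.7 and 14.18. The F1 animals stood the other way, at 13.55, 13.76 and 14.15 in TN and 12.54, 13.53 and 13.9 in HS. Heat-stressed LW and CR animals lay mostly above their thermoneutral fellows with a small overlap, whereas in F1 the ranges overlapped widely. The heat difference of CYP3A46 was 0.45 ± 0.194 (SE) for LW, 0.8 ± 0.194 for CR and -0.33 ± 0.194 for F1. Without F1 HS replicate 1, the lowest animal, the F1 value was -0.15, and without the 5 arrays that stand apart it was -0.12 ± 0.201.

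The test for unequal heat differences between breeds gave CYP3A46 an unadjusted p of 0.000783, the smallest among the 32 genes, and an adjusted p of 0.999 (limma moderated F). None of the members passed it, and neither did any feature (0% of all features). An unadjusted p under 0.05 was reached by 5 members, beside 3.77% of all features. These were CYP3A46, CYP3A4 (0.00173), CYP3A29 (0.0122), CYP1A2 (0.0173) and CYP4B1 (0.0277). CYP3A46, CYP3A4 and CYP3A29 belong to the same subfamily, and their values come from the same animals. The fall of CYP3A46 in F1 was carried by 1 of its 4 probes, at base 1810 (-1.36, against -0.07, 0.14 and -0.05 in the others).

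CYP3A4, the array's human name for a single pig probe, ran at 7.53, 8.13 and 8.7 (lowest, median, highest) in CR TN and at 8.43, 8.94 and 9.18 in CR HS. In LW it lay at 7.72, 8.14 and 8.35 in TN and at 7.77, 8.0 and 8.17 in HS. F1 animals lay at 8.1, 8.37 and 9.05 in TN and at 7.28, 8.6 and 8.74 in HS. Its median stood higher under heat in CR and in F1, and in CR the groups overlapped only between 8.43 and 8.7. Its heat difference was 0.84 ± 0.204 in CR, -0.09 ± 0.204 in LW and -0.18 ± 0.204 in F1, and the difference between the heat differences of F1 and CR was -1.02 ± 0.289 (adjusted p = 0.999 in limma). The F1 value turned positive, at 0.02, without F1 HS replicate 1 and was 0.16 ± 0.186 without the 5 arrays that stand apart, where F1 and CR differed by -0.68. The LW value also turned without them, to 0.02 ± 0.179.

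CYP3A29 (chr3:6738502-6778121), the main CYP3A form described in pig liver, was at 13.75, 14.1 and 14.22 in LW TN and 13.64, 14.49 and 14.82 in LW HS. In CR it was at 14.23, 14.46 and 14.68 in TN and 14.33, 14.84 and 15.09 in HS. In F1 it was at 14.5, 14.77 and 15.07 in TN and 14.32, 14.42 and 14.95 in HS. The medians thus stood higher under heat in LW and CR and lower in F1, with overlap in all breeds. Its heat differences were 0.38 ± 0.151 in LW, 0.35 ± 0.151 in CR and -0.22 ± 0.151 in F1. CYP3A39 did not share the sign in F1, with heat differences of 0.4 ± 0.141 in LW, 0.0 ± 0.141 in CR and 0.17 ± 0.141 in F1. In RefSeq CYP3A39 is a synonym of CYP3A46, whereas the array gives it a probe of its own.

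**Figure D2:**
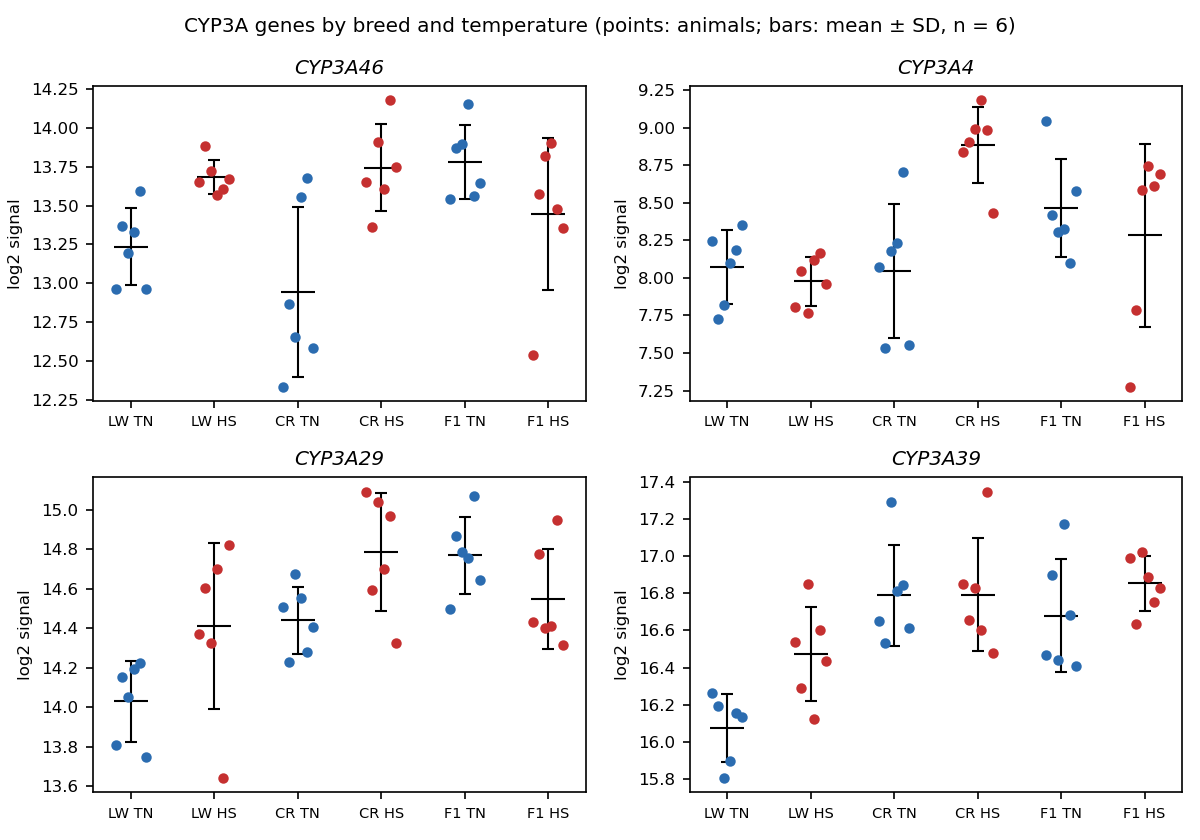
Log2 level of CYP3A46, CYP3A4, CYP3A29 and CYP3A39 (vertical axis) in each of the 36 animals, by breed and temperature, each point an animal. CR animals under heat have medians of 13.7 for CYP3A46 and 8.94 for CYP3A4 against 12.76 and 8.13 at thermoneutrality, while in F1 the CYP3A46 median is 13.53 under heat and 13.76 at thermoneutrality. The fall of the CYP3A46 mean in F1 is carried by the probe at base 1810.

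Within single breeds no P450 gene passed the test for heat. In LW the count was 0 of 32 beside 0% of all features, with a smallest adjusted p of 0.951. An unadjusted p under 0.05 was reached by 5 members (CYP3A39, CYP3A29, CYP4B1, CYP21A2 and CYP3A46), beside 5.07% of all features. Of these, CYP4B1 lay near the background in LW, where its probe was well above it on 1 TN and 2 HS arrays. In CR the count was 0 beside 0.0481% of all features. There 3 had an unadjusted p under 0.05 (CYP3A4, CYP3A46, CYP3A29), beside 7.34%, and limma gave adjusted p-values of 0.113 for CYP3A4 and 0.116 for CYP3A46. CYP3A46 passed within CR only when CR TN replicate 4 was left out, at 0.92 ± 0.195 (adjusted p = 0.0446), or CR HS replicate 2, at 0.87 ± 0.202 (adjusted p = 0.0461). Over the 36 fits without 1 animal its difference ran from 0.68 to 0.94, with an adjusted p of up to 0.365. In 9 other settings the adjusted p was 0.0779 to 0.184. In F1 the count was 0 beside 0.00902% of all features, with 2 at an unadjusted p under 0.05, CYP1A2 and CYP2C42, beside 9.3%.

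CYP1A2, which oxidises caffeine and aromatic amines, ran from 9.23 through 9.56 to 10.13 in F1 TN and from 8.63 through 9.11 to 9.55 in F1 HS, a difference of -0.52 ± 0.17 (adjusted p = 0.324 in limma), or -0.35 ± 0.191 without the arrays that stand apart. The F1 groups overlapped between 9.23 and 9.55. The 2 CYP1A2 probes gave heat differences of -0.23 and 0.03 over all breeds. Their deviations from the group means correlated at r = -0.13. CYP2C42, a member of the CYP2C drug and fatty acid oxidases read by 1 probe, had a heat difference of 1.59 ± 0.554 in F1 (adjusted p = 0.342), where TN animals spanned 7.7 to 12.13 and HS animals 11.46 to 12.54. Without F1 TN replicate 3, the animal at 7.7 and 1 of the arrays that stand apart, it was 1.05. Its heat differences in LW and CR were -0.02 ± 0.554 and 0.09 ± 0.554. CYP51, which removes a methyl group from lanosterol on the way to cholesterol, gave -0.3 ± 0.164 in F1 (adjusted p = 0.587).

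Probes named CYP3A46 differed in their heat response. Over all breeds the probe at base 797 differed by 0.44, that at base 1150 by 0.34, that at base 1755 by 0.36 and that at base 1810 by 0.07. The probe at base 1810 carried the F1 difference: within F1 it gave -1.36, against -0.07, 0.14 and -0.05 for the probes at bases 797, 1150 and 1755. Without the 3 F1 arrays that stand apart it gave -0.73, against 0.02, 0.14 and 0.1. Its level spanned 10.57 to 14.22 with a within-group SD of 0.809, against SDs of 0.476, 0.289 and 0.303 in the others. With slide as a block, the probe at base 1150 passed the test for heat (0.34 ± 0.0861, adjusted p = 0.0412), as it did without CR HS replicate 6, and the probe at base 1755 passed without F1 HS replicate 1 (0.42 ± 0.0996, adjusted p = 0.038).

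Most other P450 genes had small heat differences. CYP2E1 (chr14:141690737-141703078), which oxidises ethanol and the boar taint compound skatole, differed by 0.04 ± 0.0721 and spanned 15.29 to 15.99 in TN and 15.44 to 16.36 in HS. CYP2A19 (chr6:49056579-49064111), the pig CYP2A form that also clears skatole, differed by 0.14 ± 0.0973. CYP2D25, a pig CYP2D form that hydroxylates vitamin D, differed by -0.13 ± 0.0768. All 6 fatty acid enzymes lay between -0.05 and 0.09, the 4 steroid hormone enzymes between -0.04 and 0.04, and the 3 sterol enzymes between -0.1 and 0.03. None of these passed the test.

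The breeds were compared next, CR and F1 each against LW over both temperatures. Of the 32 P450 genes, 12 passed the test for CR against LW (37.5%), beside 25.2% of all features. Of these, 10 were higher in CR, beside 14.4% of all features higher, and 2 were lower, beside 10.8% lower. The count includes CYP4B1, which passed the filter only through CR, and without it 11 of 31 members passed, 9 of them higher. It also includes CYP2A7, a repeat reading of a CYP2A19 probe, while CYP2A19 as a gene did not pass (adjusted p = 0.613 in limma). The 10 higher were CYP3A39, CYP3A29, CYP2B22, CYP2A7 and CYP2D25 among 15 drug and foreign compound enzymes, CYP4F2 and CYP4B1 among the fatty acid enzymes, CYP24A1, CYP19A1 and the orphan CYP20A1, and the 2 lower were CYP4A24 and CYP2R1. The median size of the difference, sign aside, was 0.21 in the members and 0.11 over all features. For heat, where no member passed, these sizes were 0.1 and 0.05. The members also varied more within groups (median SD 0.281 against 0.184), so the larger size is not read as a larger effect of breed.

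For F1 against LW, 7 members passed (21.9%), beside 16.5% of all features. Of these, 6 were higher in F1, beside 9.35%, and 1 was lower, beside 7.17%. CYP3A39, CYP3A29, CYP2A7, CYP4F2, CYP24A1 and CYP2R1 passed both tests with the same sign, which share the LW animals, and CYP1A1 passed the F1 test only. Whether CYP1A1 differed between F1 and CR was tested and gave no call. Without the 5 arrays that stand apart 10 members passed for F1 against LW: CYP3A4 (0.66 ± 0.15, adjusted p = 0.00113), CYP19A1 (0.17 ± 0.045), CYP39A1 (-0.38 ± 0.131) and CYP7B1 (0.15 ± 0.0579) were added and CYP1A1 was lost. No share over all features is given for that setting, so the rise from 7 is not read as a result about P450 genes. No P450 gene separated the animals of 2 breeds without overlap. The like share over all features was not counted, so this is only a description.

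Other cell types also differed between the breeds. All 5 T and NK cell markers were lower in CR than in LW (limma, adjusted p under 0.05, median -0.35), with group means of 6.87 and 6.75 in LW, 6.39 and 6.38 in CR and 6.59 and 6.48 in F1, TN first. Of the 5 kept of 7 macrophage markers 3 were lower (median -0.61, 10.89 and 10.9 in LW, 10.34 and 10.18 in CR, MARCO and CSF1R not kept). Of the 5 kept of 6 endothelial markers 3 were lower (median -0.28, STAB2 not kept). Over all features 10.8% were lower. Of the 5 stellate and fibroblast markers 1 was lower (median -0.2), as was 1 of the 2 kept of 4 B and plasma cell markers (median -0.12). None of the 4 kept cholangiocyte and 2 kept erythroid markers passed (medians -0.03 and 0.19). Of the 6 kept periportal hepatocyte markers 1 passed and 0 were lower (median 0.03). Hepatocyte markers differed by a median of 0.01, with 1 of 6 lower, and pericentral hepatocyte markers other than P450 genes by a median of 0.16, with 0 of 6 called. The part of these differences in the P450 results was not tested.

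CYP2B22 (chr6:49158175-49173872) had the largest breed difference among the members, and its human and rodent relatives are the classic targets of phenobarbital through the constitutive androstane receptor. Its level ran from 5.88 through a median of 6.37 to 6.88 in LW, from 5.79 through 7.37 to 9.16 in CR and from 5.69 through 6.65 to 8.19 in F1. Of the 12 CR animals 10 lay above the highest LW animal and 1 lay below the lowest. CR exceeded LW by 1.01 ± 0.269 (adjusted p = 0.00541 in limma), by 0.58 to 1.48 on the 5 slides. Here and below, the slides are not balanced repeats. On slide 1 the only CR animal was from HS and the LW animals were from TN, so breed and temperature cannot be told apart there. Both CYP2B22 probes passed, at 0.73 and 1.3. F1 exceeded LW by 0.39 ± 0.269, short of the threshold, and lay 0.62 ± 0.269 below CR (adjusted p = 0.315).

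CYP3A39 was at 15.8, 16.23 and 16.85 (lowest, median, highest) in LW, 16.48, 16.73 and 17.35 in CR and 16.41, 16.79 and 17.17 in F1. All 12 CR and all 12 F1 animals lay above the LW median. The difference was 0.52 ± 0.102 for CR (adjusted p = 0.00036 in limma) and 0.49 ± 0.102 for F1 (adjusted p = 0.00193), and CR exceeded LW by 0.43 to 0.63 on each slide. CYP3A29 was at 13.64, 14.21 and 14.82 in LW, 14.23, 14.57 and 15.09 in CR and 14.32, 14.7 and 15.07 in F1, again with all CR and F1 animals above the LW median. Its differences were 0.39 ± 0.118 and 0.44 ± 0.118 (adjusted p = 0.0128 and 0.011). It fell short for CR against LW with the processed signal and with the authors' table, with an adjusted p of up to 0.0704. CYP3A4 missed the threshold at 0.44 ± 0.169 (adjusted p = 0.0505), and passed without the 5 arrays that stand apart (0.54 ± 0.14, adjusted p = 0.00353). Those arrays were chosen for lying toward another breed, so this pass is no support. CYP3A46 was level between CR and LW as a mean (-0.12 ± 0.165), but its probe at base 1150 was 0.36 higher in CR (adjusted p = 0.0179) while that at base 1810 differed by -0.69 (adjusted p = 0.17).

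CYP1A1 (chr7:58802887-58809155), the classic target of AHR, was at 7.13, 8.17 and 8.45 in LW, 7.6, 8.68 and 9.8 in CR and 7.63, 9.05 and 9.61 in F1. Of the F1 animals 8 of 12 lay above the highest LW animal. F1 exceeded LW by 0.74 ± 0.231 (adjusted p = 0.0245 in limma), but without the 5 arrays that stand apart the adjusted p was 0.054. CR exceeded LW by 0.51 ± 0.231, short of the threshold (adjusted p = 0.105). The probe at base 2805 passed both tests, at 0.8 in CR and 1.09 in F1, and the probe at base 1046 neither, at 0.21 and 0.4. CYP1A2 differed by -0.25 ± 0.132 between CR and LW, where its probe at base 1875 fell by 0.63 (adjusted p = 0.0046) and its probe at base 994 differed by 0.14 (adjusted p = 0.675).

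CYP2D25 (chr5:6539021-6543643) was at 15.31, 15.75 and 16.19 in LW and at 15.5, 16.02 and 16.31 in CR, with 11 of 12 CR animals above the LW median. The difference was 0.27 ± 0.0941 (adjusted p = 0.0294 in limma), negative on 1 of 5 slides, and its adjusted p rose to as much as 0.137 under other processing. CYP2A7, whose human namesake is an inactive relative of the nicotine oxidase CYP2A6, was at 13.32, 13.96 and 14.41 in LW, 13.43, 14.3 and 14.88 in CR and 14.03, 14.36 and 14.89 in F1. It differed by 0.32 ± 0.118 in CR (adjusted p = 0.0444, and up to 0.18 under other processing) and by 0.44 ± 0.118 in F1 (adjusted p = 0.0105). Since its probe is the CYP2A19 probe at base 1301 letter for letter, this is a repeat reading of that CYP2A19 sequence. The SD of the difference between both spots was 0.0416 over 36 arrays.

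**Figure D3:**
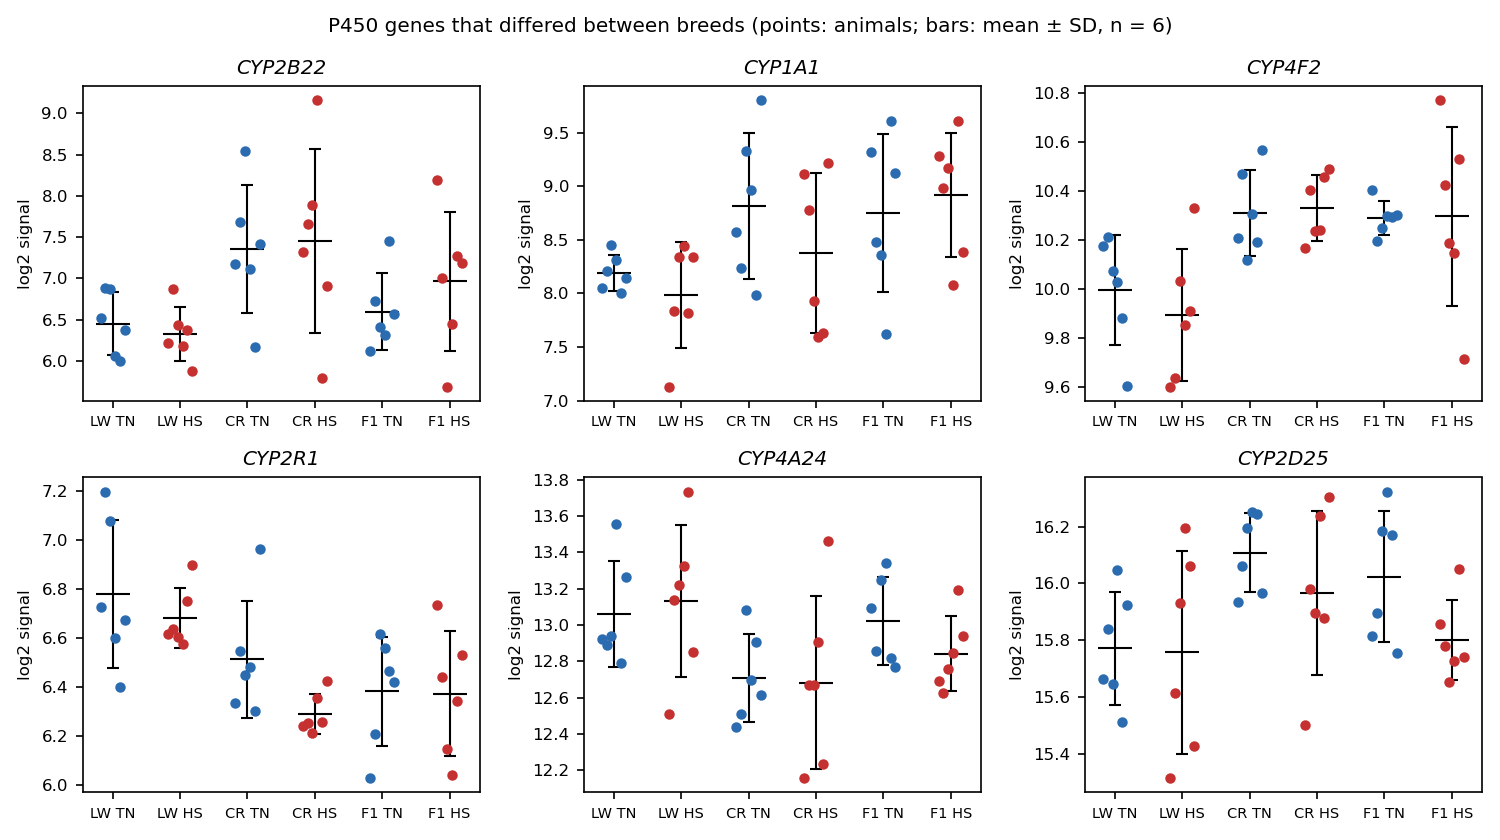
Log2 level of CYP2B22, CYP1A1, CYP4F2, CYP2R1, CYP4A24 and CYP2D25 (vertical axis) in each of the 36 animals, by breed and temperature, each point an animal. The LW animals of CYP2B22 lie between 5.88 and 6.88, and 10 of 12 CR animals lie above them.

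Among the fatty acid enzymes, CYP4F2 (chr2:61745069-61759971), which hydroxylates arachidonic acid and the side chain of vitamin E, was at 9.6, 9.97 and 10.33 in LW, 10.12, 10.27 and 10.57 in CR and 9.72, 10.29 and 10.77 in F1. All 12 CR animals lay above the LW median. It differed by 0.38 ± 0.0886 in CR (adjusted p = 0.00201 in limma) and by 0.35 ± 0.0886 in F1 (adjusted p = 0.00772). The probes at bases 1665 and 1690, which share a run of 55 bases, differed by 0.62 and 0.61 in CR, whereas the dim probe at base 2956, at 5.56 to 6.18, differed by -0.1. CYP4A24 (chr6:164496928-164518189), a pig hydroxylase of fatty acid ends, went the other way, at 12.51, 13.04 and 13.73 in LW and 12.16, 12.67 and 13.46 in CR. It fell by 0.4 ± 0.126 on the log2 scale (adjusted p = 0.0181), and on all 5 slides. The probe at base 696 fell by 0.66 (adjusted p = 0.000627) and the probe at base 2352 differed by -0.14 (adjusted p = 0.465). Its neighbour CYP4A21, which makes the pig bile acid hyocholic acid, differed by -0.33 ± 0.158 (adjusted p = 0.125).

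CYP4B1 was near the background. Its probe was well above it on 7 of 12 CR, 3 of 12 LW and 2 of 12 F1 arrays, so it passed the filter only through CR, the breed where it was high. Its call is given as a description, and without it 11 of 31 members passed for CR against LW, 9 of them higher. The level was 4.94 to 5.51 in LW and 5.2 to 5.67 in CR, a difference of 0.21 ± 0.0738 (adjusted p = 0.0325 in limma) that reached 1.2 with the processed signal and missed the threshold with slide as a block. CYP4V2 and CYP2U1, which hydroxylate fatty acids as well, differed by 0.08 ± 0.101 and -0.13 ± 0.103.

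Of the vitamin D and retinoid enzymes CYP2R1, CYP24A1 and CYP26A1, the first was lower and the second higher in CR, while CYP2D25, given above, was higher. CYP2R1 (chr2:44375432-44394122), which starts the activation of vitamin D in the liver, was at 6.4, 6.66 and 7.2 in LW, 6.21, 6.34 and 6.96 in CR and 6.03, 6.43 and 6.73 in F1. In both CR and F1, 11 of 12 animals lay below the LW median. It fell by 0.33 ± 0.0863 in CR (adjusted p = 0.00497 in limma) and by 0.35 ± 0.0863 in F1 (adjusted p = 0.00603), on 5 of 5 slides. CYP24A1 (chr17:55110546-55130328), which inactivates vitamin D, was at 11.87, 12.05 and 12.47 in LW, 12.23, 12.37 and 12.58 in CR and 12.16, 12.38 and 12.66 in F1, with all CR and F1 animals above the LW median. It differed by 0.28 ± 0.0589 in both (adjusted p = 0.000687 and 0.00217). Its 4 probes were unequal. The probe with no start position given differed by 0.59 in CR, and those at bases 2847 and 2899 by 0.24 and 0.28. The probe at base 2578 differed by 0.02, was the brightest probe on 31 of 36 arrays at 18.75 to 18.94, and is listed in the file under 4 accessions, so its part in the gene mean is not a level of CYP24A1 alone. CYP26A1, which breaks down retinoic acid, spanned 8.24 to 11.05 over all animals and differed by -0.26 ± 0.269 in CR.

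CYP20A1, a P450 with no known substrate, was at 7.62, 7.95 and 8.14 in LW and 8.0, 8.13 and 8.31 in CR, with all CR animals above the LW median (0.21 ± 0.0512, adjusted p = 0.00326 in limma). CYP19A1, the aromatase that makes oestrogens, was at 8.59, 8.71 and 8.88 in LW and 8.74, 8.85 and 8.96 in CR (0.14 ± 0.0433, adjusted p = 0.0176, and up to 0.184 under other processing). A pair of its probes with the same 60 bases gave 0.19 and 0.21, and its dim probe at base 2418 gave 0.01. The other steroid enzymes CYP11A1, CYP17A1 and CYP21A2, known from adrenal gland and gonad, lay at 5.09 to 6.18 in all animals, and none passed the test between breeds (-0.02 ± 0.0417, -0.06 ± 0.0674 and -0.08 ± 0.0638 for CR minus LW). The sterol enzymes CYP7B1, CYP39A1 and CYP51 gave 0.06 ± 0.0563, -0.18 ± 0.134 and 0.22 ± 0.117, and none passed, although the CYP51 probe at base 332 passed at 0.43 (adjusted p = 0.0132) and the CYP39A1 probe at base 989 at -0.31 (adjusted p = 0.0294).

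The cross was then set against CR and against the mean of both parents. None of the 32 genes passed the test for F1 against CR, beside 1.39% of all features, with 3 at an unadjusted p under 0.05 (CYP4B1, CYP1A2, CYP2B22), beside 12.0% of all features. CYP4B1, which entered through CR, differed by -0.25 ± 0.0738 (adjusted p = 0.0767) and by -0.33 ± 0.0721 without the 5 arrays that stand apart (adjusted p = 0.011), and is no independent result here. Among the other 31 members the smallest adjusted p was 0.265, for CYP1A2. Against the mid-parent value 0 passed, beside 0.667% of all features, with 9 at an unadjusted p under 0.05, beside 14.3% of all features. Of these 9, CYP2A7 gave 0.28 ± 0.103 (adjusted p = 0.186), CYP1A1 0.49 ± 0.2 and CYP3A39 0.23 ± 0.0884. Without the 5 arrays that stand apart, CYP24A1, CYP2A7, CYP2R1, CYP3A4 and CYP4B1 passed. The share over all features is not given for that setting, so this count is not read as a result about P450 genes. F1 lay nearer to CR than to LW in 9 of the 12 genes that separated CR from LW, the others being CYP2B22, CYP4A24 and CYP4B1. The like share over all features is not given. Over all features 16.5% passed for F1 against LW and 1.39% for F1 against CR, so this is not read as a trait of P450 genes.

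Counted by probe, 28 of 80 P450 probes passed for CR against LW (23 higher, 5 lower), beside 26.5% of all probes, and these lay in 20 genes. For F1 against LW 17 probes in 11 genes passed, beside 18.4% of all probes. For F1 against CR 1 passed, beside 1.5% of all probes: the CYP1A2 probe at base 1875, higher in F1 by 0.67 (adjusted p = 0.0276 in limma). Of the 22 genes with 2 or more kept probes, 7 had probes of both signs for CR minus LW.

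The estimates of the CYP2A19 probes ran from negative to positive along the transcript, but 1 of 7 passed and differences between probes were not tested. From the 5′ to the 3′ end the difference of CR from LW was -0.17, -0.05, -0.01, 0.09, 0.27, 0.33 and 0.2 for probes at bases 154, 319, 538, 744, 1122, 1301 and 1697, so that the mean of 0.09 ± 0.119 hid a called probe at base 1301 (adjusted p = 0.0371). Their heat differences stayed between 0.01 and 0.19. In CYP2C33 (chr14:111268751-111301748) the overlapping probes shown above gave 0.39 at base 327 and -0.19 at base 368 for CR minus LW, neither called, and their deviations from the group means correlated at r = 0.26 over 36 animals. The remaining 4 CYP2C33 probes lay between -0.13 and 0.07.

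**Figure D4:**
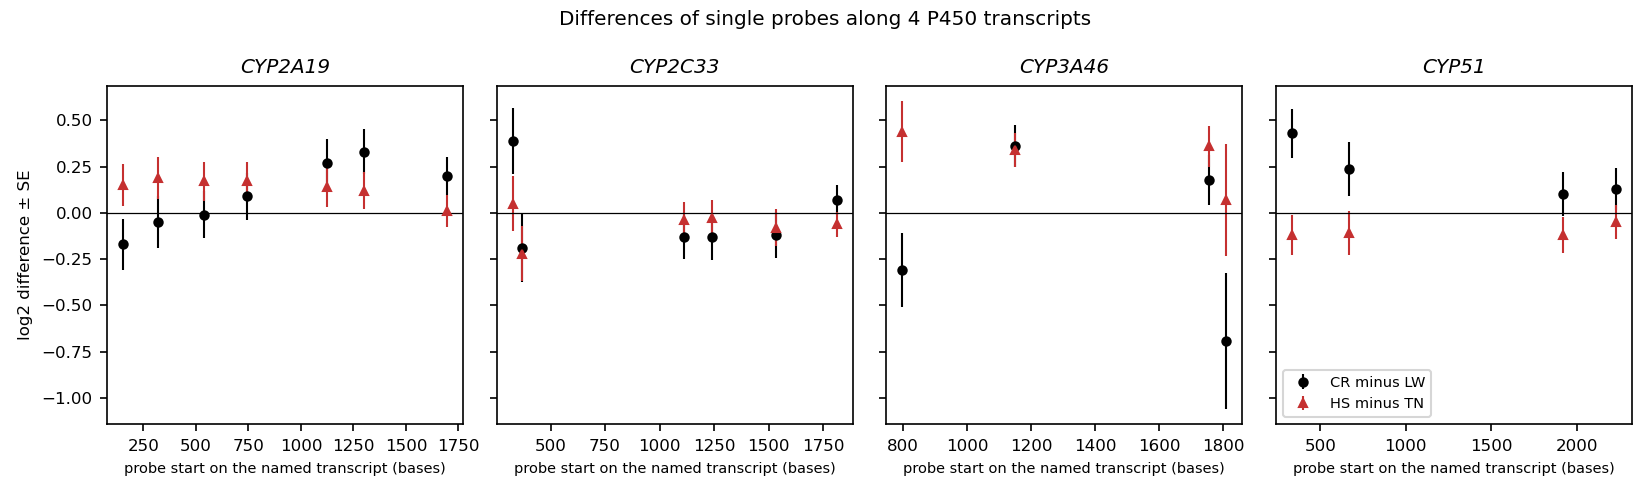
Log2 difference with its standard error (vertical axis) of each kept probe against its start on the named transcript in bases (horizontal axis), for CYP2A19, CYP2C33, CYP3A46 and CYP51, with circles for CR minus LW and triangles for HS minus TN. Along CYP2A19 the breed difference runs from -0.17 at base 154 to 0.33 at base 1301, while the heat difference stays between 0.01 and 0.19.

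Animals of the same group differed more in P450 genes than in a typical feature. The median within-group SD was 0.281 in the members and 0.184 over all features, and 10 of 32 members lay at the 90.3rd percentile of all features or above. This is a description, with no test. CYP2C34 (chr14:106285170-106327579) had an SD of 1.31, at the 99.9th percentile, and spanned 10.58 to 15.09. CYP2C42 (chr14:106666445-106701809), CYP2C49 (chr14:106571803-106612082), CYP26A1 and CYP2B22 followed with SDs of 1.02, 0.827, 0.717 and 0.71.

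In CYP2C34 the median was 12.93 for LW, 13.69 for CR and 13.18 for F1, and in each of the 6 groups the lowest animal lay at 11.82 or below and the highest at 13.99 or above. Its probe at base 597 spanned 7.06 to 13.32 with an SD of 2.01, against 13.88 to 16.86 and 0.741 for the probe at base 1557. This latter probe went with the 3 CYP2C49 probes at r = 0.98 to 0.99 over the deviations of 36 animals from their group means, and the file lists transcripts in common for them. CYP2C49 itself spanned 12.23 to 15.36 and gave heat differences of 0.63 ± 0.451 in LW, 0.15 ± 0.451 in CR and -0.3 ± 0.451 in F1. Without the arrays that stand apart the F1 value was -0.06 ± 0.543.

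**Figure D5:**
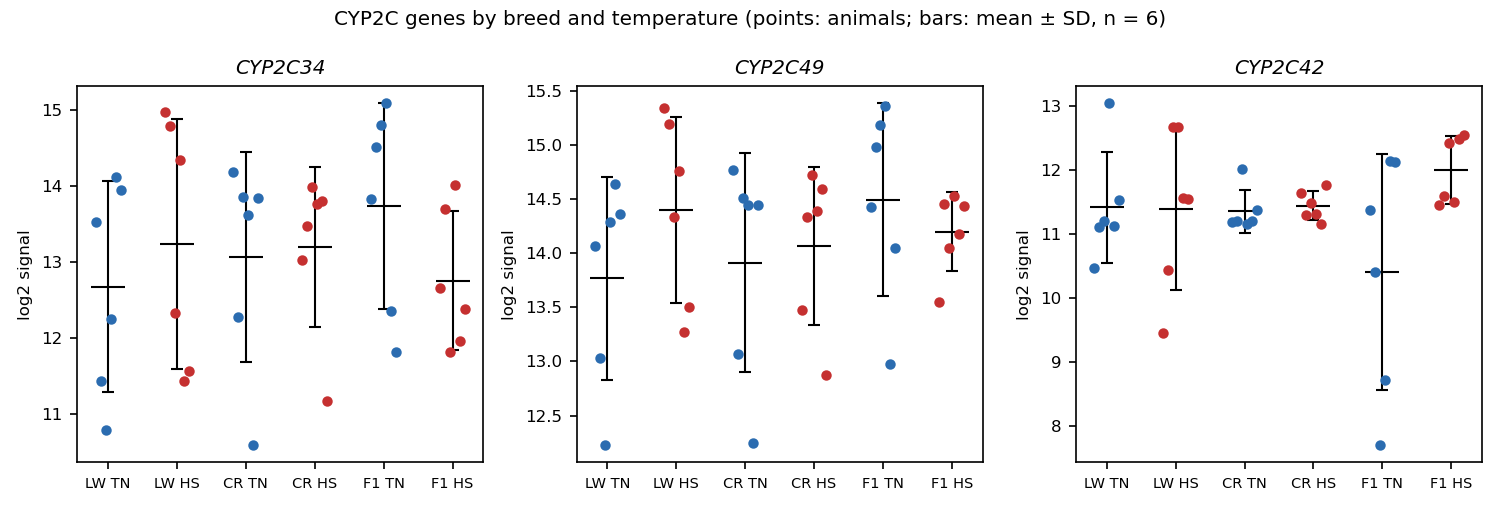
Log2 level of CYP2C34, CYP2C49 and CYP2C42 (vertical axis) in each of the 36 animals, by breed and temperature, each point an animal. Over all groups the levels run from 10.58 to 15.09 for CYP2C34 and from 7.7 to 13.04 for CYP2C42, whose animals lie close together in CR, from 11.15 to 12.01 in TN and from 11.16 to 11.77 in HS.

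Across members the deviations of the 36 animals showed no common course: the median correlation was 0.02 over 496 pairs, and 9 pairs exceeded 0.6. The highest were CYP2A19 with CYP2A7 (0.93, with a probe in common), CYP2C34 with CYP2C49 (0.9, with transcripts in common), CYP4A21 with CYP4A24 (0.86) and CYP2D25 with CYP4A24 (0.81). These are descriptions over animals that share their arrays.

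The partners of P450 enzymes were tested in the same fits. Of 6 kept of 7 electron donors none passed for heat (median 0.01). For CR against LW 1 passed, beside 25.2% of all features: FDX1, which was higher in CR (0.2 ± 0.07, adjusted p = 0.0328 in limma). The reductase POR gave 0.02 ± 0.105. Of 8 kept of 12 heme genes 1 passed for heat, the bile pigment reductase BLVRB, which fell by 0.31 ± 0.0699 (adjusted p = 0.0251), beside 0.833% of all features. For CR against LW 3 heme genes passed, beside 25.2% of all features: the heme synthesis enzyme CPOX at 0.27 ± 0.0696, BLVRB at 0.3 ± 0.0856 and the heme-degrading HMOX1, which fell by 0.55 ± 0.126. HMOX1 is also found in macrophages, whose markers were lower in CR, and their part in its fall was not tested. Of 14 kept of 18 regulators none passed for heat, where NR1I2 gave 0.15 ± 0.0429 (adjusted p = 0.0839). For CR against LW 1 regulator passed, beside 25.2% of all features: CEBPB, which fell by 0.29 ± 0.102 (adjusted p = 0.0313). AHR gave 0.1 ± 0.14 between CR and LW. Over these lists no gene passed for F1 against LW, beside 16.5% of all features.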

How the data were processed

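The liver RNA of 36 pigs was hybridised to 1-colour arrays, 1 array per animal. The authors deposited the scanner output of each array (Agilent Feature Extraction 10.10.1.1), whose median spot signals are intensity values on a linear scale, not normalized between arrays. Their own log2 values, deposited for 42051 probes, are quantile normalized according to the study's methods. Its probe means varied by an SD of 0.0533 across probes against 2.64 in the scanner values, so each probe had been centred, and it served as an alternative only.

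The median signal was log2 transformed and then quantile normalized over all spots but controls, whereas the methods of the study put the log2 step last. The 107 spots flagged non-uniform were set as missing, none of them in a P450 probe. A probe was kept if well above background on 6 or more of the 36 arrays, true of 44796 of 60305 (74.3%), and kept probes of the same name were averaged to 33267 gene features. Gene names are those of the array's files, with synonyms and coordinates from the RefSeq gene table of Sscrofa11.1. The number of arrays limits the precision.

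Groups came from the labels, with 6 animals in each of 6. Breed and temperature were tested as fixed effects in limma 3.58.1 under R 4.3.3 (lmFit and eBayes, two-sided, Benjamini-Hochberg adjustment over all features, threshold 0.05), and the interaction and within-breed comparisons in a model with a mean per group. The script was tested on simulated data. Pen, slaughter day and parents, which the study's model holds, are not in the labels. Named were the called genes with the largest breed differences, the smallest p for the interaction and for heat within breeds, the widest spread, and a set list of P450 genes, and further genes and probes were named after their values were seen. The members and lists were chosen with earlier results of these data known. Alternatives were the processed signal scaled to the 75th percentile, normexp with an offset of 50, the authors' table, other filters on dim probes, slide as a block, array weights, a trended robust spread, leaving out the 5 arrays that stand apart or any single array, and 1 value per probe.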

Additional observations from a re-analysis of the deposited data

Results flagged for a closer look

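In groups of 6, the lowest or highest animal was set against the others by Dixon's ratio for 27 named genes, and 7 of 162 groups held an animal past the 95% critical value. Chance alone gives about 1 in 20 groups, so 7 is no more than that rate. CYP2C34 in CR HS replicate 6 stood lowest at 11.17 against 13.03 for the next animal. CYP51 in CR HS replicate 5 stood lowest at 11.62 against 12.51, and without that animal CYP51 passed the test for CR against LW (0.3 ± 0.103, limma adjusted p = 0.0311). CYP2C42 in CR TN replicate 3 stood highest at 12.01 against 11.37. CYP2R1 in CR TN replicate 6 stood highest at 6.96 against 6.55. CYP20A1 in LW HS replicate 2 stood highest at 8.14 against 7.96. CYP7B1 stood highest at 13.92 in CR HS replicate 4, against 13.76, and at 13.94 in LW HS replicate 1, against 13.73.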

How the results depend on the processing

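Without any single animal, the number of P450 genes past the threshold was 9 to 13 for CR against LW (12 with all animals), 7 to 8 for F1 against LW (7), 0 to 1 for F1 against CR (0) and 0 to 1 for heat within CR (0, CYP3A46). It stayed at 0 for heat over all breeds, heat within LW and F1, the interaction and the mid-parent contrast. By probe it was 0 to 1 for heat (0), 21 to 28 for CR against LW (28), 13 to 22 for F1 against LW (17) and 0 to 2 for F1 against CR (1). Counting a gene by any called probe gave 20 genes for CR against LW, 11 for F1 against LW and 1 for F1 against CR, by the construction of that count. The other alternatives gave 8 to 13 genes for CR against LW. CYP4B1 passed for F1 against CR (1 gene) with array weights and without the arrays that stand apart, settings in which 2 probes passed, and 0 probes did with the authors' table. Against the mid-parent value 1 gene passed with array weights (CYP24A1) and 5 without the arrays that stand apart. With slide as a block 1 probe passed for heat, and with the authors' table, which holds 78 of the 80 probes, 17 passed for CR against LW. The cause was not tested. Shares over all features are not given for the alternatives, so changes in these counts are not read as results about P450 genes. No breed difference that passed the test changed sign in any of these settings. The heat difference of CYP3A4 within F1 turned from -0.18 to 0.02 without F1 HS replicate 1 and to 0.16 without the arrays that stand apart, and other differences that had not passed also turned in some settings. For CR against LW, CYP2A7 lost its call without any of 13 animals, CYP4B1 without any of 9 and CYP2D25 without any of 6. CYP4B1 and CYP2U1 are the genes that dim signal limits most. No paired analysis was possible because the replicate numbers only name the animals and the labels give no litter.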
